A study of Mus musculus with 9 samples.

Results

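The 38 genes described here act in S phase, the part of the cell cycle in which a cell copies its DNA. They were chosen as a list of gene symbols, and each symbol was matched by its mouse Ensembl identifier to a row of the count table, which held 29288 genes. All 38 were found and all 38 passed the filter on low counts that left 18933 genes for testing. Their mean raw count over the 9 libraries lay between 55.3 and 3474, and the lowest raw count of any of them in any library was 4.

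The cells were intestinal epithelial cells (IECs) isolated from proximal small intestinal crypts of wild-type female C57BL/6J mice aged 7 to 10 weeks, sorted as live EpCAM+ CD45- CD31- Ter119- cells. The study's methods name males and females for its experiments as a whole. Control mice (n = 3) received phosphate-buffered saline (PBS) and were sampled at 18 h. The 18h-αGal mice (n = 3) and the 72h-αGal mice (n = 3) received 2 µg of α-galactosylceramide (αGalCer) intraperitoneally, a glycolipid that CD1d presents to natural killer T (NKT) cells, and were sampled 18 h and 72 h later. All 72 h libraries were compared with controls labelled 18 h, so that at 72 h the treatment and the time of sampling cannot be told apart. The mice were not littermates, each library came from 1 mouse, and no mouse lacked NKT cells or received a lipid that does not activate them.

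The small intestinal crypt holds stem cells at its base and, above them, transit-amplifying cells that divide rapidly before they differentiate, so that crypt epithelium normally contains many cells in S phase. Replication is prepared in G1, when Cdc6 and Cdt1 load the ring-shaped Mcm2 to Mcm7 helicase onto origins. It starts when the kinase partnered by cyclin E and other kinases allow Cdc45 and the GINS complex to join the helicase, and it proceeds with polymerases, a sliding clamp and a supply of deoxynucleotides made by ribonucleotide reductase. Many of these genes are transcribed at the G1/S boundary under the E2F factors, which the retinoblastoma protein restrains until D-type cyclins and their kinases inactivate it.

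Total counts per library ranged from 8887861 to 32722293. Control replicate 3 had the lowest total and stood apart from the other 8 libraries on the second principal component (-46.2 against 0.0105 to 14.6). The summed level of 9 epithelial markers was 4957 to 6531 CPM (counts scaled to the same total in every library) in all libraries, whereas the 13 lymphocyte markers found in the table summed to 3.49 to 5.80 CPM in controls, 3.99 to 6.72 in 18h-αGal and 3.55 to 11.2 in 72h-αGal. The 8 crypt stem cell markers summed to 2127 to 4805 CPM in controls, 671 to 2231 in 18h-αGal and 3045 to 5142 in 72h-αGal, with 7 of the 8 below 0 at 18 h and none called in either comparison with control. The part of this difference in the values of the replication genes was not tested.

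The first question was how the replication genes stood 18 h after αGalCer. Rrm2, the small subunit of ribonucleotide reductase, rose about 2-fold and was the only gene of the 38 to pass an adjusted p under 0.05. This was 1 of 38 genes (2.63%), against 3.27% of all 18933 genes called higher, so the share called was no larger than the background. No gene of the 38 was called lower, against a background of 2.69%. Of the 38, 31 had a log2 fold change above 0 (81.6%, against 47.6% of all genes). An unadjusted p under 0.05 was reached by 8 of the 38, all of them higher (21.1%), while over all genes 10.5% reached it higher and 10.3% lower. Rfc5, Fen1 and Rrm2 had 18h-αGal libraries that were all above the controls (7.89%, against 11.5% of all genes), and no gene had libraries that were all below (against 12.3%). The median log2 fold change was 0.36, beside -0.03 over all genes tested, with a range from -0.21 for Pold1 to 1.64 for Fen1. In RNA from a population of cells, a change in the number of S phase cells and a change in the RNA of each cell cannot be told apart.

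**Figure D1:**
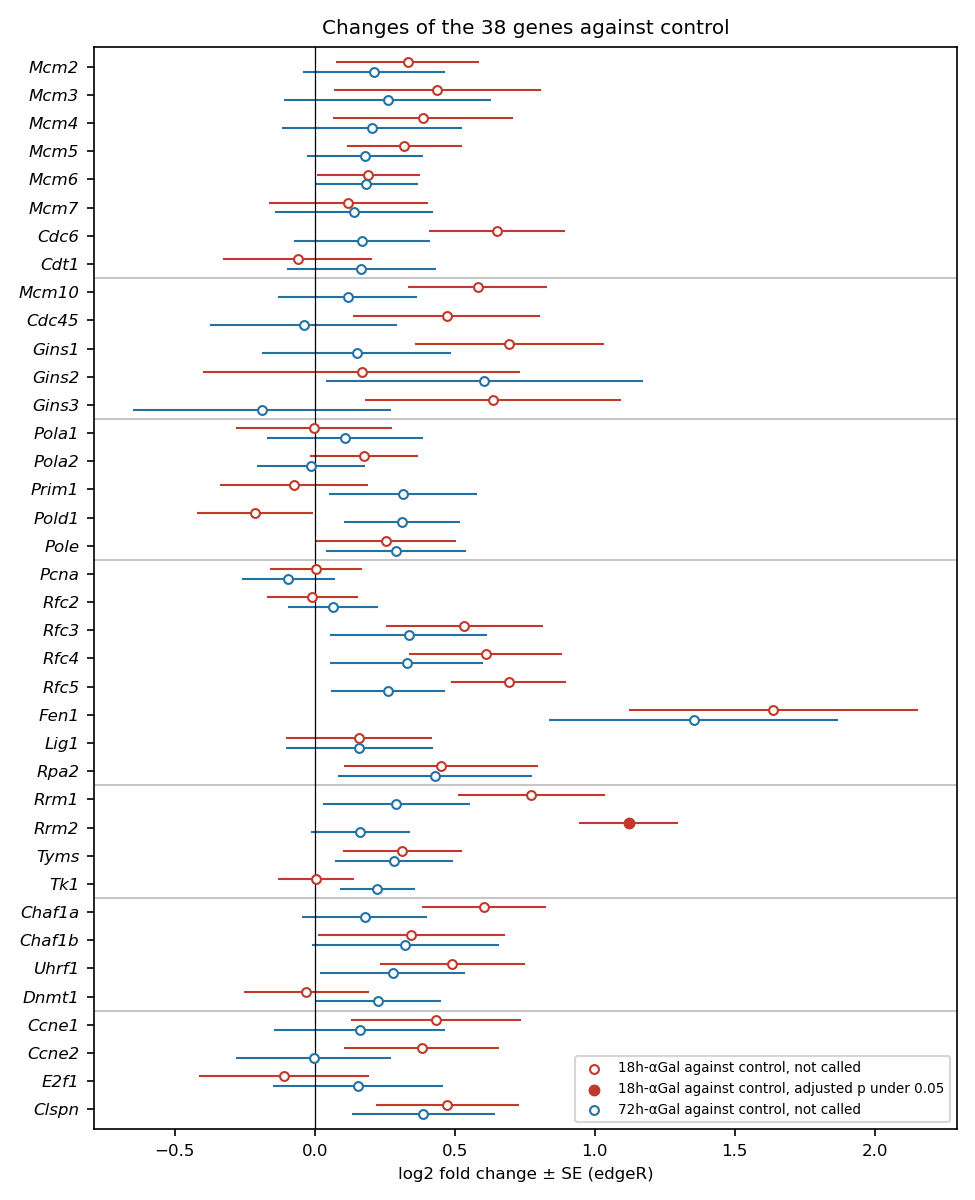
Log2 fold change ± SE (x axis, edgeR) of the 38 genes (y axis, grey lines between roles) in 18h-αGal (red) and 72h-αGal (blue) against the same 3 controls, with filled points for an adjusted p under 0.05. Rrm2 at 18 h, at 1.12 ± 0.18, is the only filled point, and 31 of 38 red and 33 of 38 blue points lie above 0.

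Ribonucleotide reductase converts ribonucleotides to deoxyribonucleotides and is built of the large subunit Rrm1 and the small subunit Rrm2. Rrm2 (ENSMUSG00000020649, chr12:24757811-24764145 on the plus strand in GENCODE vM39, GRCm39) had normalised counts (raw counts scaled by a factor for each library) of 688, 660 and 552 in control replicates 1, 2 and 3, 1529, 1498 and 1089 in 18h-αGal, and 678, 838 and 599 in 72h-αGal. Every 18h-αGal library lay above every other library, and the controls overlapped the 72h-αGal libraries. The means were 633 ± 71.9 (SD, n = 3) in controls, 1372 ± 246 at 18 h and 705 ± 122 at 72 h. The log2 fold change was 1.12 ± 0.18 (SE) at 18 h with an adjusted p of 0.0021 (edgeR quasi-likelihood test, Benjamini-Hochberg over all genes tested), and 0.16 ± 0.18 at 72 h with an adjusted p of 0.947. Compared directly, 72h-αGal lay below 18h-αGal by -0.96 ± 0.18 (adjusted p = 0.0038). Rrm2 was called at 18 h in all 18 alternative settings, with log2 fold changes between 1.03 and 1.26.

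The large subunit, Rrm1, stood at 1653, 1846 and 989 in controls, 2945, 3036 and 1676 in 18h-αGal and 1989, 1700 and 1781 in 72h-αGal. Replicates 1 and 2 of 18h-αGal were above every other library, whereas replicate 3 fell within the range of the controls. The log2 fold change at 18 h was 0.77 ± 0.26 and did not pass the test (adjusted p = 0.123). It passed (adjusted p = 0.0146) when 18h-αGal replicate 3, its lowest library at 18 h, was left out. With another single library left out the value was as low as 0.55, and it passed in 3 of 18 alternative settings. Rrm1, like Rfc5, Fen1, Mcm10, Chaf1a, Gins1, Rfc4 and Mcm3, was named after its values were seen. The ratio of Rrm2 to Rrm1 normalised counts was 0.416, 0.357 and 0.558 in controls, 0.519, 0.493 and 0.649 in 18h-αGal and 0.341, 0.493 and 0.336 in 72h-αGal, so the groups overlapped in this ratio.

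The other genes of nucleotide supply make thymidine nucleotides. Tyms, thymidylate synthase, had 746, 905 and 549 normalised counts in controls, 851, 1189 and 689 in 18h-αGal and 847, 827 and 988 in 72h-αGal. The groups overlapped, and the log2 fold change at 18 h was 0.31 ± 0.21 (adjusted p = 0.447). Tk1, thymidine kinase of the salvage pathway, had 906 ± 104 in controls and 905 ± 9.92 at 18 h (log2 fold change 0.00 ± 0.13), and its 3 libraries at 18 h lay within the range of the controls. At 18 h the 4 genes of this role thus spread from 0.00 for Tk1 to 1.12 for Rrm2.

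**Figure D2:**
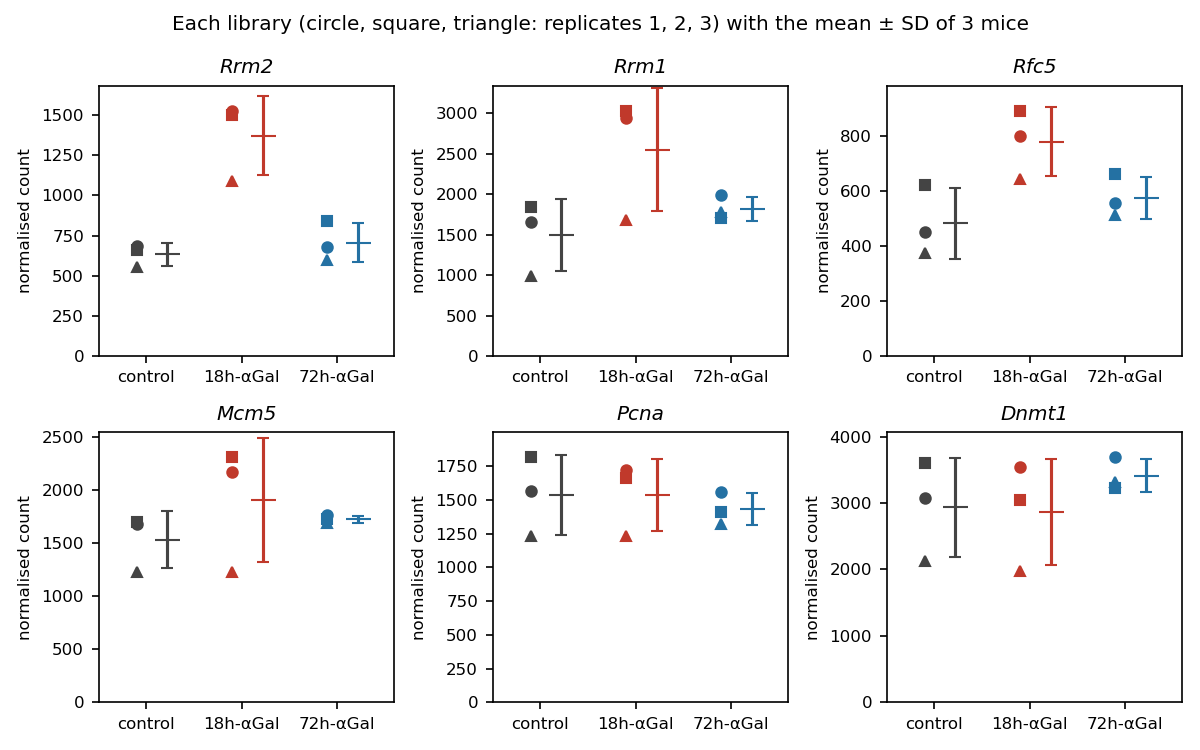
Normalised counts (y axis, from 0) of 6 genes in the 3 groups (x axis), each library as a point (circle, square and triangle for replicates 1, 2 and 3) beside the mean ± SD of 3 mice. Rrm2 and Rfc5 at 18 h lie above every control, replicate 3 is the lowest library at 18 h for all 6 genes, and for Rrm1, Mcm5, Pcna and Dnmt1 its value falls within or below the range of the controls.

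Origin licensing loads the helicase, and its 8 genes had a median log2 fold change of 0.33 at 18 h with none called. Mcm2 had 1274, 1528 and 853 normalised counts in controls, 2049, 1522 and 1011 in 18h-αGal and 1484, 1297 and 1430 in 72h-αGal (18 h log2 fold change 0.33 ± 0.25, adjusted p = 0.521). Mcm5 had 1679, 1701 and 1229 in controls, 2176, 2315 and 1235 in 18h-αGal and 1764, 1726 and 1696 in 72h-αGal (0.32 ± 0.21, adjusted p = 0.423). Both genes had a shared pattern, with replicate 3 lowest in the control group and in 18h-αGal, and with the smallest spread at 72 h. The 6 subunits of the Mcm2 to Mcm7 ring lay between 0.12 for Mcm7 and 0.44 for Mcm3 at 18 h, all above 0, with standard errors between 0.18 and 0.37.

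The loaders of the ring differed from each other at 18 h. Cdc6 had 540, 631 and 304 normalised counts in controls, 882, 885 and 557 in 18h-αGal and 564, 542 and 554 in 72h-αGal, with a log2 fold change at 18 h of 0.65 ± 0.24 (adjusted p = 0.134). The first and second libraries at 18 h were above all other libraries, and the third lay within the range of the controls. Cdt1, which loads the ring together with Cdc6 and is degraded once S phase begins, had 1272, 1431 and 775 in controls, 1079, 1525 and 723 in 18h-αGal and 1343, 1270 and 1275 in 72h-αGal. Its log2 fold change at 18 h was -0.06 ± 0.27 (adjusted p = 0.933), with overlapping groups and a sign that depended on the libraries left in.

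Origin firing turns the loaded ring into an active helicase, and all 5 of its genes lay above 0 at 18 h (median 0.58), again with none called. Cdc45, a helicase subunit, had 463, 429 and 159 normalised counts in controls, 618, 518 and 334 in 18h-αGal and 360, 364 and 308 in 72h-αGal, and a log2 fold change at 18 h of 0.47 ± 0.33 (adjusted p = 0.473). Mcm10, which helps to activate the helicase, had 733, 983 and 661 in controls, 1503, 1346 and 687 in 18h-αGal and 870, 817 and 873 in 72h-αGal. Its value of 0.58 ± 0.25 at 18 h (adjusted p = 0.2) became 0.85 (adjusted p = 0.0101) without 18h-αGal replicate 3, its lowest library at 18 h. With another single library left out the value was as low as 0.36, and Mcm10 passed in 1 of 18 alternative settings. The GINS subunits were low in counts, with control means of 108 for Gins1, 65.8 for Gins2 and 68.6 for Gins3, and their log2 fold changes at 18 h were 0.69 ± 0.34, 0.17 ± 0.57 and 0.64 ± 0.46.

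The polymerases and primase stood lowest of the roles, with a median of -0.00 over 5 genes. Pola1, the catalytic subunit of the polymerase that starts each new strand, had 955, 1135 and 533 normalised counts in controls, 990, 1069 and 556 in 18h-αGal and 922, 920 and 977 in 72h-αGal. Its log2 fold change at 18 h was -0.00 ± 0.28 (adjusted p = 0.997). The values at 18 h were 0.18 for Pola2, -0.07 for Prim1, -0.21 for Pold1, the catalytic subunit of polymerase delta, and 0.25 for Pole, that of polymerase epsilon, and none of these passed the test.

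The clamp Pcna encircles DNA and holds the polymerase in place, and the RFC complex loads it. Pcna had 1565, 1818 and 1229 normalised counts in controls, 1718, 1665 and 1229 in 18h-αGal and 1560, 1407 and 1325 in 72h-αGal, and a log2 fold change at 18 h of 0.01 ± 0.16 (adjusted p = 0.991). Controls and 18h-αGal had almost the same range for this widely used proliferation marker. Of the clamp loader genes, Rfc2 lay at -0.01 ± 0.16, whereas Rfc3, Rfc4 and Rfc5 lay at 0.53 ± 0.28, 0.61 ± 0.27 and 0.69 ± 0.20 at 18 h.

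Rfc5 had 450, 624 and 373 normalised counts in controls, 800, 893 and 644 in 18h-αGal and 555, 661 and 513 in 72h-αGal. Its 18h-αGal libraries were all above its controls, and its adjusted p of 0.0595 fell just outside the threshold. Rfc3 had 364, 341 and 193 in controls, 513, 474 and 319 in 18h-αGal and 294, 340 and 497 in 72h-αGal, with overlapping groups and an adjusted p of 0.298 at 18 h.

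Fen1 cuts the flaps left when Okazaki fragments are joined. In controls it had the fewest counts per length of the 38 genes, with normalised counts of 33.5, 19.9 and 9.51 in controls, 82.0, 58.4 and 64.8 in 18h-αGal and 74.1, 49.4 and 44.9 in 72h-αGal. Both αGalCer groups lay above all controls. The log2 fold change was 1.64 ± 0.52 (adjusted p = 0.0754) at 18 h and 1.35 ± 0.51 (adjusted p = 0.816) at 72 h, so that neither was called. The remaining genes of this role, the ligase Lig1 and Rpa2, which binds single-stranded DNA, lay at 0.16 ± 0.26 and 0.45 ± 0.35 at 18 h.

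Chromatin and DNA methylation are copied behind the fork. Uhrf1, which recognises hemimethylated DNA, had 2065, 2200 and 1265 normalised counts in controls, 3271, 2774 and 1698 in 18h-αGal and 2511, 2095 and 2069 in 72h-αGal, with a log2 fold change at 18 h of 0.49 ± 0.26 (adjusted p = 0.326). Its partner Dnmt1, the maintenance methyltransferase, had 3075, 3597 and 2130 in controls, 3548, 3044 and 1984 in 18h-αGal and 3692, 3230 and 3311 in 72h-αGal, and -0.03 ± 0.22 at 18 h (adjusted p = 0.962). The groups overlapped for both genes. Chaf1a and Chaf1b, subunits of the factor that places histones on new DNA, lay at 0.61 ± 0.22 (adjusted p = 0.125) and 0.35 ± 0.33 (adjusted p = 0.621).

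Entry into S phase is set by cyclin E and E2F1, and claspin (Clspn) carries the signal of a stalled fork to the checkpoint kinase. Ccne1 had 206, 119 and 266 normalised counts in controls, 284, 320 and 177 in 18h-αGal and 232, 202 and 213 in 72h-αGal (0.43 ± 0.30 at 18 h, adjusted p = 0.465). Ccne2 had 274, 263 and 276 in controls, 404, 427 and 217 in 18h-αGal and 189, 336 and 276 in 72h-αGal (0.38 ± 0.28, adjusted p = 0.482). For both cyclins the first and second 18h-αGal libraries were above every control and the third was not. E2f1 had 410, 331 and 197 in controls, 284, 390 and 199 in 18h-αGal and 273, 322 and 449 in 72h-αGal (-0.11 ± 0.30, adjusted p = 0.888), and Clspn had 325, 412 and 238 in controls, 608, 419 and 323 in 18h-αGal and 446, 370 and 456 in 72h-αGal (0.47 ± 0.26, adjusted p = 0.315). Neither E2f1 nor Clspn separated the groups.

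Across the 38 genes, the libraries of a group differed together. Control replicate 3 was the lowest library of its group for 35 of 38 genes and the lowest of all 9 libraries for 28. Replicate 3 of 18h-αGal was likewise the lowest of its group for 35, while replicates 1 and 2 of 18h-αGal were the highest of all 9 libraries for 17 and 12 genes. The summed level of the 38 genes was 1072 to 2055 CPM in controls (median 1712), 1262 to 2298 in 18h-αGal (median 2233) and 1788 to 1957 in 72h-αGal (median 1952), so the 72h-αGal libraries fell within the spread of the controls.

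The median coefficient of variation of a gene within its group was 28.6% in controls, 29.1% in 18h-αGal and 8.75% in 72h-αGal, and 32 of the 38 genes had their smallest coefficient at 72 h. These values were not computed over all genes, so they cannot be read as particular to the 38. As the genes of a library moved together, the 32 genes are not separate observations. Replicate 3 was also the library with the fewest counts in the control group (8887861) and in 18h-αGal (14951274). Cell type markers differed in the same libraries. The 12 enterocyte markers summed to 18533 CPM in control replicate 3, against 11626 and 8038 in replicates 1 and 2, and to 15860 CPM in 18h-αGal replicate 3, against 12379 and 10496. The 8 stem cell markers were lowest there, with 2127 CPM against 3785 and 4805 in controls and 671 against 2231 and 1705 in 18h-αGal, and no marker of either list was at 0 in any library. The parts of depth and of these markers in the pattern were not tested, although the values were scaled to the depth of each library.

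**Figure D3:**
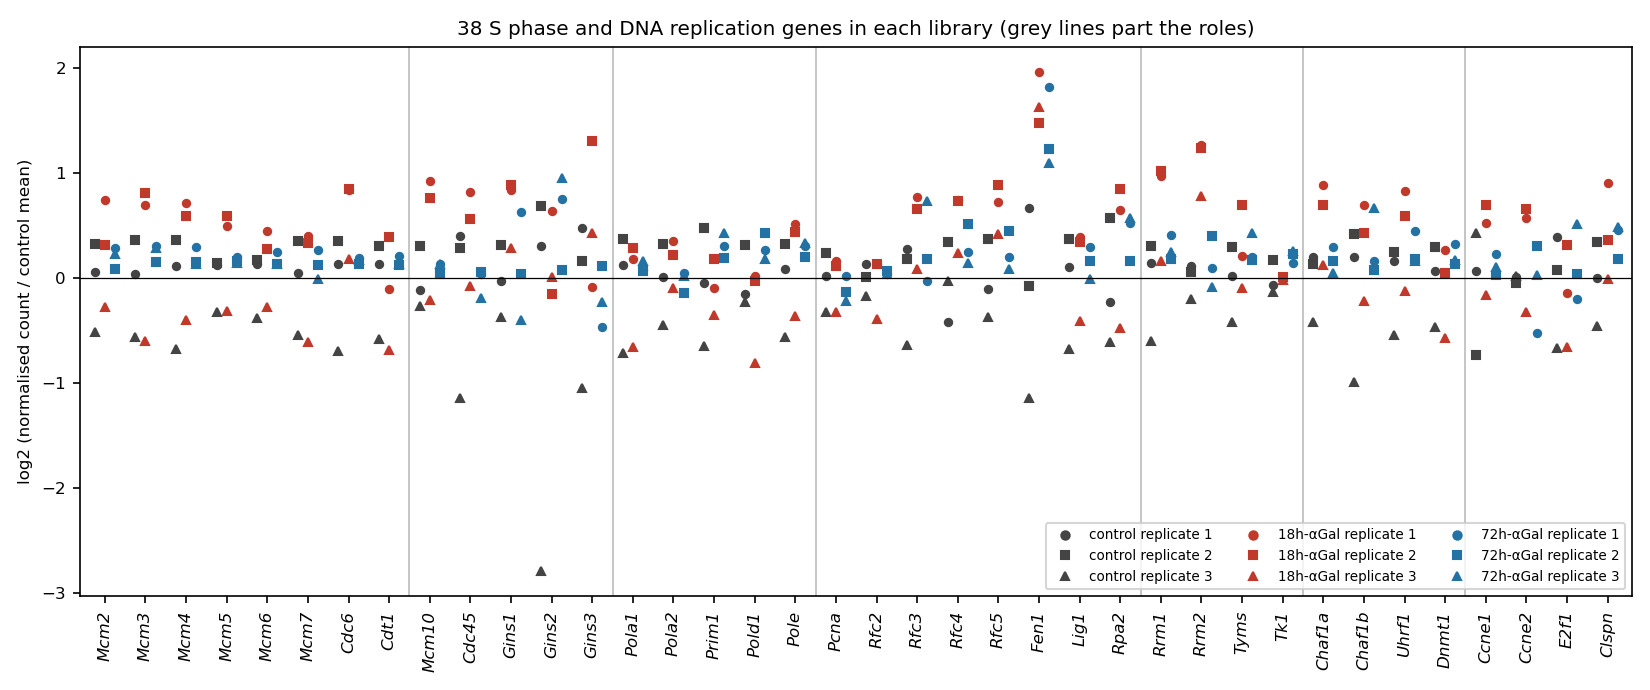
Log2 ratio of the normalised count to the control mean (y axis) for each of the 38 genes (x axis, grey lines between roles) in the 9 libraries, with groups in black, red and blue and replicates 1, 2 and 3 as circles, squares and triangles. Control replicate 3 (black triangles) is the lowest library for 28 genes, and the 72h-αGal libraries (blue) mostly sit close together.

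Leaving out single libraries moved the 18 h counts. Without 18h-αGal replicate 3, all 38 genes lay above 0 with a median of 0.59, and 8 were called higher (21.1%, against 3.07% of all genes in the same fit): Mcm3, Mcm5, Cdc6, Mcm10, Rfc5, Rrm1, Rrm2 and Chaf1a. Without control replicate 3, only Rrm2 was called (2.63%, against 4.25% of all genes called higher), 26 genes lay above 0 and the median was 0.14. Without control replicate 2, Rfc5 was called beside Rrm2 (5.26%, against 1.86%). DESeq2 on the same counts called 4 of the 38 higher (10.5%, against 3.87% of all genes called higher and 8.3% called in either direction), namely Rfc5, Fen1, Rrm1 and Rrm2.

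Since the libraries of a group rose and fell together, each gene was also expressed as its share of the summed normalised counts of the 38 genes in the same library, a description added after the data were seen. The share of Rrm2 was 2.09%, 1.75% and 2.43% in controls, 3.43%, 3.46% and 4.18% in 18h-αGal and 1.84%, 2.43% and 1.71% in 72h-αGal. On this scale Rrm2 at 18 h was again above all other libraries, 18h-αGal replicate 3 included. In all, 8 genes had shares above every control at 18 h (Cdc6, Gins1, Rfc5, Fen1, Rrm1, Rrm2, Chaf1a and Uhrf1), and 4 had shares below every control (Mcm7, Pold1, Pcna and Dnmt1).

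Among all genes tested, the ratio to this sum lay above every control for 2.2% and below every control for 12.7%. The 38 genes are part of that sum and varied with it between libraries, whereas the other genes are not part of it. The 2 kinds of share are therefore not a like comparison, and no conclusion is drawn from it. The share of Rrm1 was 5.02%, 4.90% and 4.36% in controls and 6.60%, 7.02% and 6.44% in 18h-αGal, without overlap. That of Dnmt1 was 9.35%, 9.55% and 9.40% in controls and 7.95%, 7.04% and 7.62% in 18h-αGal, and that of Pold1 was 3.01%, 3.63% and 4.14% against 2.50%, 2.49% and 2.41%. The 4 genes below every control were 10.5% of the 38, and the shares of the other polymerase and primase genes (Pola1, Pola2, Prim1 and Pole) overlapped the controls. These shares sum to 100% in each library, so a rise in one gene lowers the others, and no test was made on them.

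**Figure D4:**
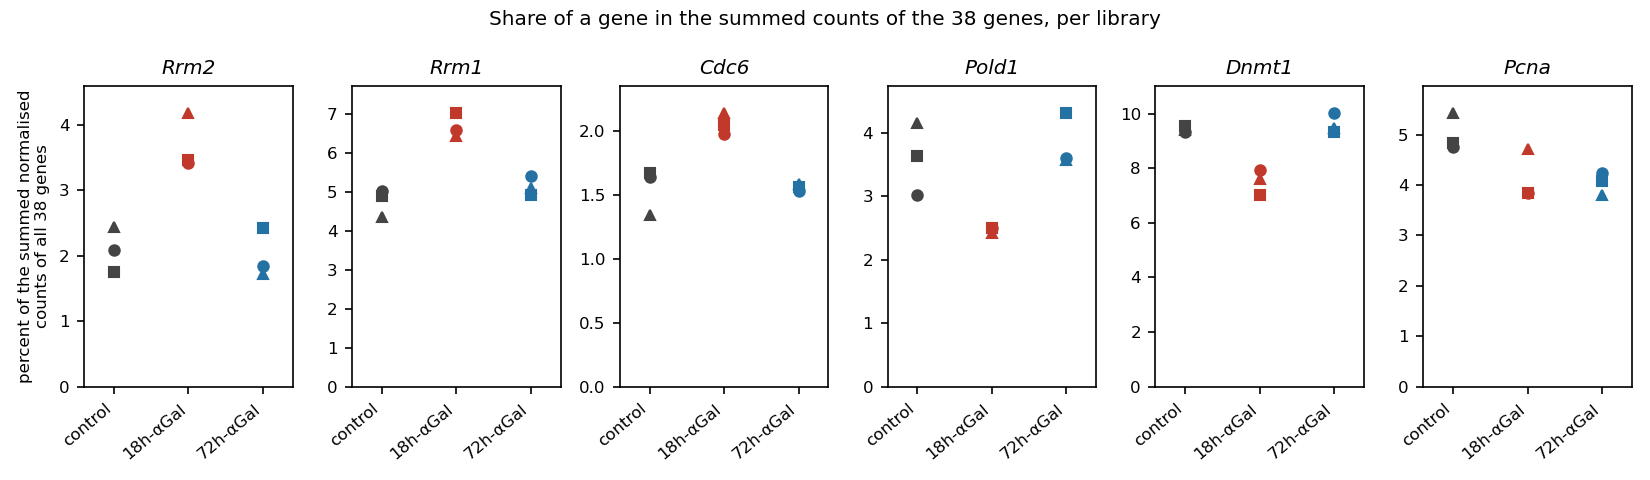
Share of each of 6 genes in the summed normalised counts of all 38 genes (y axis, percent, from 0) for the 9 libraries in the 3 groups (x axis), with circles, squares and triangles for replicates 1, 2 and 3. Rrm2, Rrm1 and Cdc6 at 18 h lie above all other libraries, Pold1 and Dnmt1 lie below all others, and Pcna at 18 h lies below every control.

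The second question was whether the genes were back at the control level by 72 h. None of the 38 was called in 72h-αGal against control by edgeR (lowest adjusted p 0.816) or by DESeq2, and 1, Fen1, had an unadjusted p under 0.05 by edgeR (2.63%, against 2.36% of all genes higher at that level). Over all genes tested, 0.0% were called higher and 0.0264% lower, so few genes of any kind differed. Of the 38 genes 33 lay above 0 (86.8%, against 50.3% of all genes), with a median of 0.19 beside 0.00 over all genes tested, and Fen1 was the only gene whose libraries were all above the controls (2.63%, against 6.36% of all genes). Without control replicate 3, 26 genes lay above 0 and the median was 0.04. On the scale of shares, 2 genes (Pole and Fen1) lay above every control and 2 (Pola2 and Pcna) below. Over all genes the ratio to the same sum lay above for 2.41% and below for 8.11%, which is again not a like comparison. The comparisons at 18 h and 72 h use the same 3 control libraries, so their signs are not independent of each other.

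At 72 h the medians by role were 0.18 for licensing, 0.12 for origin firing, 0.29 for polymerases, 0.29 for the clamp and flap genes, 0.25 for nucleotide supply, 0.25 for chromatin copying and 0.16 for the regulators. At 18 h they had been 0.33, 0.58, -0.00, 0.49, 0.54, 0.42 and 0.41 in the same order. The 12 enterocyte markers summed to 8038 to 18533 CPM in controls and 5270 to 9857 in 72h-αGal, all 12 with a log2 fold change below 0 and none called, and the part of this difference in the values of the replication genes was not tested.

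Set directly against 18h-αGal, the 72h-αGal libraries gave a call for 1 of the 38 genes, Rrm2, which was lower (2.63%, against 6.04% of all genes called lower). None was called higher, against 4.18% of all genes. Of the 38, 26 lay below 0, and the median was -0.13 beside 0.05 over all genes. Rrm2 was also the only gene whose 72h-αGal libraries were all below those of 18h-αGal (against 16.3% of all genes), and 3 genes, Prim1, Pold1 and Tk1, had libraries that were all above (7.89%, against 16.6%). Pold1 had 1117, 1077 and 628 normalised counts at 18 h and 1325, 1487 and 1247 at 72 h, a log2 difference of 0.53 ± 0.21 that did not pass the test (adjusted p = 0.131). Without 18h-αGal replicate 3, Mcm10 was called lower at 72 h beside Rrm2 (5.26%, against 4.15% of all genes).

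Other genes of the cell cycle were read from the same fit, from lists written from general knowledge but with earlier results of these data known. None of 44 other replication genes was called at 18 h, and none of 13 genes of the replication checkpoint (median 0.12). The other replication genes had a median of 0.22, with 39 above 0 (88.6%, against 47.6% of all genes). In G1/S control 6 of 28 genes were called higher at 18 h and none lower (21.4%, against 3.27% of all genes), and the median of the list was 0.17. At G2 and mitosis 6 of 30 were called higher and none lower, 22 were higher at an unadjusted p under 0.05 (73.3%, against 10.5% of all genes), and the median was 0.56, the highest of the 5 lists.

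The called G1/S genes included D-type cyclins, which drive the kinases that inactivate the retinoblastoma protein. Ccnd1, cyclin D1, had 1321, 1630 and 1436 normalised counts in controls, 3893, 3817 and 2801 in 18h-αGal and 1926, 1464 and 1609 in 72h-αGal, with 1.27 ± 0.15 at 18 h (adjusted p = 0.00027). All its 18h-αGal libraries, replicate 3 included, lay above every other library, as for Rrm2. Ccnd3, cyclin D3, lay at 0.92 ± 0.20 (adjusted p = 0.0137), Ccna2, cyclin A2 of S phase and G2, at 0.64 ± 0.16 (adjusted p = 0.0333) and Tfdp1, the dimer partner of E2F, at 0.60 ± 0.15 (adjusted p = 0.0289). The latter pair lost their calls in 8 of 18 alternative settings each.

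The called mitotic genes with the largest changes were Hmmr, a spindle protein, at 0.93 ± 0.17 (adjusted p = 0.00598), Ube2c, a ubiquitin carrier of the anaphase-promoting complex, at 0.85 ± 0.17 (adjusted p = 0.0103), Birc5, a chromosomal passenger protein, at 0.76 ± 0.18 (adjusted p = 0.0206) and Foxm1, a transcription factor of mitotic genes, at 0.69 ± 0.16 (adjusted p = 0.0215). For Hmmr the libraries stood at 470, 611 and 478 in controls, 864, 1218 and 883 in 18h-αGal and 733, 760 and 681 in 72h-αGal. Its 18h-αGal libraries were above all other libraries. Top2a, a topoisomerase of S phase and G2, lay at 0.63 ± 0.20 (adjusted p = 0.0845) and Mki67, the proliferation antigen Ki-67, at 0.40 ± 0.14 (adjusted p = 0.116), so neither was called. Cdkn1a, which encodes the cyclin kinase inhibitor p21, and Myc, both named whatever their values, lay at 0.50 ± 0.19 (adjusted p = 0.134) and -0.09 ± 0.30 (adjusted p = 0.909).

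The count of called mitotic genes depended on the libraries. It was 1 without 18h-αGal replicate 2, 2 without 18h-αGal replicate 1 or control replicate 1, 14 without control replicate 2 and 15 without 18h-αGal replicate 3. For G1/S control it was 2 without 18h-αGal replicate 2 or control replicate 1. Over all genes, 1.14% were called higher without 18h-αGal replicate 2, 2.03% without 18h-αGal replicate 1 and 1.27% without control replicate 1. It was 1.86% without control replicate 2 and 3.07% without 18h-αGal replicate 3.

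At 72 h none of the 4 lists had a called gene against control. All 30 mitotic genes lay above 0 (median 0.29), against 50.3% of all genes, and Mki67 lay at 0.34 ± 0.14 (adjusted p = 0.826). Of the 30, 7 were higher at an unadjusted p under 0.05 by edgeR (23.3%, against 2.36% of all genes). For 7 of the 30 the 72h-αGal libraries were all above the controls (23.3%, against 6.36%). Cdkn1a stood at 1678, 1471 and 2377 normalised counts in controls, 2155, 2379 and 3236 in 18h-αGal and 1165, 1322 and 974 in 72h-αGal. Its 72h-αGal libraries were below all others, with -0.66 ± 0.19 against control (adjusted p = 0.701) and -1.16 ± 0.19 against 18h-αGal (adjusted p = 0.00214). Between 18 h and 72 h, G1/S control had 6 genes called lower (21.4%, against 6.04% of all genes) and 3 higher (10.7%, against 4.18%). Among those lower were Ccnd1 at -1.07 ± 0.15 (adjusted p = 0.000772) and Ccna2 at -0.57 ± 0.16 (adjusted p = 0.039).

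**Figure D5:**
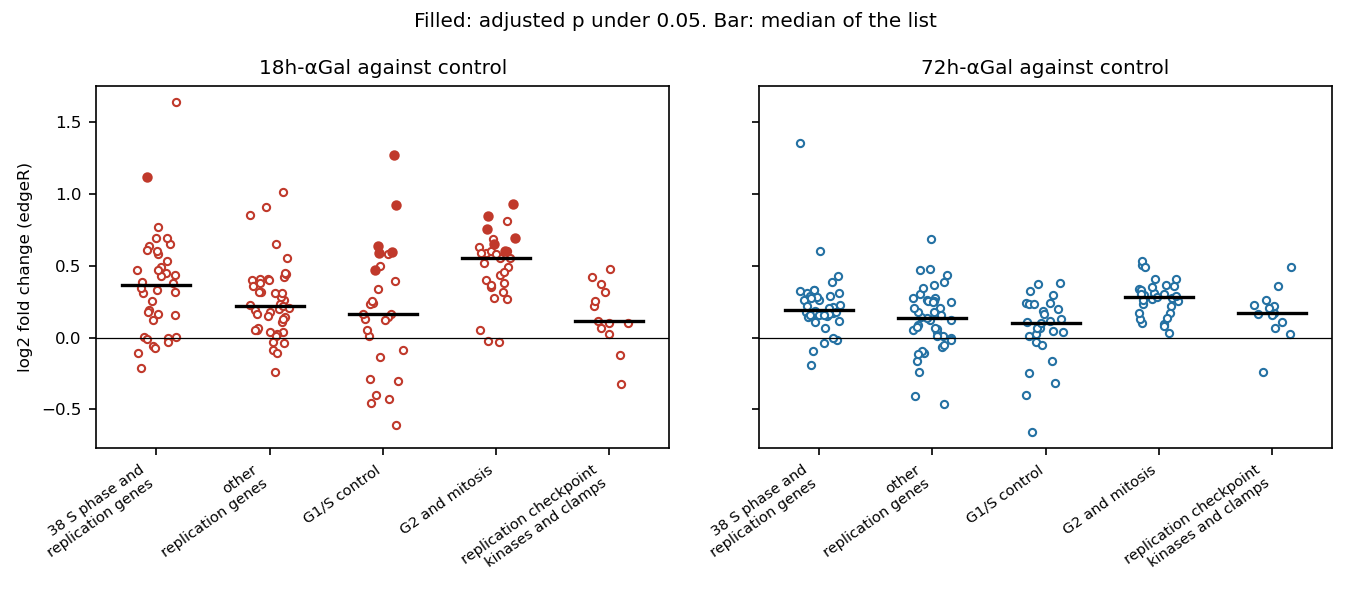
Log2 fold changes against control (y axis, edgeR) at 18 h and 72 h for the 38 genes and 4 other cell cycle lists (x axis), each point a gene, filled for an adjusted p under 0.05, with a bar at the median. At 18 h the G2 and mitosis list has the highest median (0.56, against 0.36 for the 38 genes), and at 72 h no point is filled.

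Promoter windows from RefSeq (build GRCm38.p6, from 250 bases before to 50 after a transcription start) were read for letters bound by cell cycle factors. Of the 38 genes 32 had a window, 39 windows in all, and Mcm4, Gins1, Gins2, Pole, Rfc2 and Ccne2 had none. E2F words (TTTCCCGC, TTTCGCGC, TTTGCCGC or TTTGGCGC on either strand) stood in 14 of the 39 windows (35.9%), against 2.27% of all 32851 windows. The CCAAT box, the word of the factor NF-Y, stood in 56.4% against 37.4%, and the CHR element of mitotic genes (TTTGAA on either strand) in 12.8% against 17.9%. For comparison, windows of the G2 and mitosis list held E2F words in 7.14%, CCAAT in 85.7% and the CHR in 78.6%.

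The 14 genes with an E2F word had a median log2 fold change of 0.26 at 18 h and the 18 genes with a window but no such word 0.44, a description with no test. Both kinds were found at either end of the range: Rrm2, Rrm1, Rfc5 and Fen1 had no E2F word while Cdc6 (0.65) and Gins3 (0.64) had 1, and Pold1, the lowest of the 38, had 1 while E2f1 (-0.11) and Prim1 (-0.07) had none. Windows are shown for genes at these ends and for Mcm6, which holds the most words: Mcm6 has 3 E2F words, of which the first and second overlap, Pold1 has 1, and Rrm2 and Rrm1 have none. Capitals mark the E2F words in Mcm6 (chr1:128359656-128359955, minus strand) and Pold1 (chr7:44548766-44549065, minus strand).
Mcm6: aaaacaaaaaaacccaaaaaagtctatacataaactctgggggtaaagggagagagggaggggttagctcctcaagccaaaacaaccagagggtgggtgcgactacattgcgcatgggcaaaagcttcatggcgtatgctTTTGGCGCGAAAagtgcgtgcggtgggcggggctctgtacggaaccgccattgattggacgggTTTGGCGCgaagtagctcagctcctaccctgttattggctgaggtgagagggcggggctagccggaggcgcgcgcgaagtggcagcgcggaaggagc
Pold1: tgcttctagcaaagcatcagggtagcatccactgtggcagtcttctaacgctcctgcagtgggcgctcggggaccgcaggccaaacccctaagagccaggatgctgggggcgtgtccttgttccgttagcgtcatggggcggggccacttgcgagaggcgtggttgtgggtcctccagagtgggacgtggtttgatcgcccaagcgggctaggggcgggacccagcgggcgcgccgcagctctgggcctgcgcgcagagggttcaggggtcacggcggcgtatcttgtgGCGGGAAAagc
Capitals mark the CCAAT letters in Rrm2 (chr12:24708004-24708303, plus strand) and Rrm1 (chr7:102441445-102441744, plus strand).
Rrm2: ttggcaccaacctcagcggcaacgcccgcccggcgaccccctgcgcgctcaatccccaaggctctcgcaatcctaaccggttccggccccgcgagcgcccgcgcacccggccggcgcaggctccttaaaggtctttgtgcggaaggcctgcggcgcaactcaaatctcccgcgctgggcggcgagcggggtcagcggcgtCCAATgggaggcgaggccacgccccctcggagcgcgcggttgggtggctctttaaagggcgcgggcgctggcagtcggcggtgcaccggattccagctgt
Rrm1: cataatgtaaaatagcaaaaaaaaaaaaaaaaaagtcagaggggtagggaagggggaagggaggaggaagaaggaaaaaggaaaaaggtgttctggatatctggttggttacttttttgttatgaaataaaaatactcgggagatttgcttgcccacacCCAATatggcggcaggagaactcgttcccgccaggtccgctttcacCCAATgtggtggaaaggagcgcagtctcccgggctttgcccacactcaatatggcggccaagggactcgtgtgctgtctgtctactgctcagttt
In Rrm2 the CCAAT box begins at base 201 of 300, and in Rrm1 the boxes begin at bases 160 and 206. A word in a window is a match of letters and not a measured site, and a window without the word says only that these exact letters were not in these 300 bases.

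Levels of different genes were compared as normalised counts per kb of exon. The length was that of all exons annotated for a gene in GENCODE vM39, joined, and may exceed the length of the RNA made. The annotation used in counting was not known, so the ranks between genes are rough. The part of exon overlaps with other genes (next paragraph) in these levels was not tested. In controls Pcna was the highest at 641 ± 123 (SD, n = 3), followed by Cdt1 at 358 ± 106, Uhrf1 at 349 ± 95.8, Dnmt1 at 345 ± 87.5 and Mcm6 at 333 ± 67.0. The latter 4 overlapped each other within their SD. Rrm2 ranked 11 of 38 in controls at 191 ± 21.7 per kb, and its mean was 413 per kb at 18 h, when Pcna (641) and Uhrf1 (489) alone had higher means. The lowest in controls were Gins3 at 21.7 ± 10.1, Gins2 at 16.1 ± 12.3 and Fen1 at 6.48 ± 3.71.

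Exons of 17 of the 38 genes overlap a gene on the opposite strand in GENCODE vM39. The overlap covers 67.3% of the exon bases of Gins2 (by Gse1), 59.0% of Fen1 (by the non-coding Gm10143), 51.0% of Chaf1a (by Ubxn6), 43.3% of Rrm2 (by the non-coding Gm59512) and 41.4% of Rfc5 (by Wsb2). The libraries were made with a kit that keeps strand (NEBNext Ultra II Directional), but the strand setting of the counting was not given in the sources used here, so it is not known whether reads of these genes and of their partners were counted apart. Wsb2 lay at -0.21 ± 0.13 at 18 h (adjusted p = 0.388), Gm10143 at 0.44 ± 0.87 (adjusted p = 0.836), Ubxn6 at -0.08 ± 0.33 (adjusted p = 0.925) and Gse1 at 0.03 ± 0.14 (adjusted p = 0.948), while Gm59512 was not in the count table. Tmem258 also overlaps Fen1, by 6.95% of its exon bases, and had far more counts (771 ± 47.8 in controls, 1064 ± 109 at 18 h). It lay at 0.47 ± 0.14 at 18 h (adjusted p = 0.057), and its part in the values of Fen1 was not tested. Stretches of 50 bases shared with other transcripts made up 17.4% of Pcna (most with Pcna-ps2), 12.6% of Mcm7, 10.6% of Uhrf1 and 3.47% of Rrm2, and such reads may have been split or dropped.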

How the data were processed

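RNA was measured in 9 libraries, 3 mice per group. The libraries were made with the NEBNext Ultra II Directional kit, which keeps strand. The authors aligned 100 bp reads with HISAT2 and counted them with featureCounts (Subread), per the labels and the study's methods. The submitters' processing notes name GRCm38 (mm10) and the methods name GRCm39. The annotation release and the strand setting of the counting were not given in the sources used here. The authors deposited raw counts per gene and a normalised signal, called normalised counts here, which was found to be the raw counts scaled by a factor for each library (DESeq2 1.42.0 is named in the notes), with no correction for gene length. The libraries held 8887861 to 32722293 counts (3.68-fold apart), so counting error is largest in control replicate 3. The printed SDs and standard errors include the spread between mice.

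Identifiers were matched to GENCODE vM39 (GRCm39, 28480 of 29288 matched, 808 not). Raw counts were tested with edgeR 4.0.16 in R 4.3.3 (filterByExpr, TMM scaling, robust quasi-likelihood fit of all 9 libraries without covariates), with Benjamini-Hochberg adjustment over 18933 genes and a call at an adjusted p under 0.05. Standard errors are the log2 fold change over the square root of F. The steps were also run on simulated counts drawn for each gene apart. That run lacks the shared rise and fall of genes within a library seen here and does not bear on it. P-values measure the spread between mice of 1 experiment. No sequencing batch was given.

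The 38 genes, the lists and the rule for named genes were chosen with earlier results of these data known. Named in full were genes called against control and fixed leads of each role (Mcm2, Mcm5, Cdc6, Cdt1, Cdc45, Pola1, Pcna, Rfc3, Rrm2, Tyms, Uhrf1, Dnmt1, Ccne1, Ccne2, E2f1 and Clspn), and from the other lists up to 4 called genes with a mean of at least 100 counts, beside Mki67, Top2a, Ccna2, Ccnd1, Cdkn1a and Myc. Alternatives were DESeq2 1.42.0, limma 3.58.1 on log2 of the deposited normalised counts plus 1, other scalings and filters, a fit without robust moderation, fits of 2 groups only, a replicate block and leaving out each library. Figures were drawn with matplotlib 3.10.9.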

Additional observations from a re-analysis of the deposited data

Results flagged for a closer look

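Rrm2 differed between the 2 times of sampling. Its log2 change from control at 72 h minus that at 18 h was -0.96, tested as the direct comparison of the 72h-αGal and 18h-αGal libraries (edgeR, adjusted p = 0.0038), with all 3 libraries of 72h-αGal below all 3 of 18h-αGal. The same difference was -1.07 for Ccnd1 (adjusted p = 0.000772), -0.57 for Ccna2 (adjusted p = 0.039) and -1.16 for Cdkn1a (adjusted p = 0.00214), in each case with no overlap between the libraries of both groups. For Rrm2, Ccnd1 and Ccna2 the 18 h value was above control and the 72 h value close to it, whereas Cdkn1a at 72 h was below control in all 3 libraries without passing the test (adjusted p = 0.701). Ccna2 lost its call in 8 of 18 alternative settings. The 18h-αGal libraries enter both the comparison with control and the direct comparison, so a call at 18 h and a fall to 72 h are not independent. From the other lists only the named genes were screened here, while G1/S control had 6 genes called lower and 3 higher between the times.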

How the results depend on the processing

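The number of the 38 genes called at 18 h was 1 as reported, 4 with DESeq2 and 2 with no filter on low counts (2.63%, 10.5% and 5.26%). Of all genes, 5.96%, 8.3% and 5.21% were called in either direction in the same fits. When single libraries were left out the number was between 1 and 8 (2.63% to 21.1%), the highest without 18h-αGal replicate 3. In those fits 2.16% to 7.66% of all genes were called. Rrm2 kept its call in all 18 alternatives at 18 h and in all 18 against 72h-αGal. Against 72h-αGal the count was between 1 and 2 with single libraries left out, while 4.18% to 12.8% of all genes were called in those fits. The number of genes above 0, which was 12 as reported, was between 7 (without 18h-αGal replicate 3) and 19 (without 18h-αGal replicate 1). Against control at 72 h none of the 18 alternatives called any of the 38. Fixed leads near 0 at 18 h changed sign: Pola1 was 0.00525 with no filter and 0.0091 with limma, and Pcna was -0.00194 with DESeq2, -0.00151 with median-of-ratios scaling, -0.0326 with library totals alone and -0.0262 with a mean of at least 50 counts. With single libraries left out, Cdt1 ranged from -0.36 to 0.17, Pola1 from -0.25 to 0.23, Pcna from -0.13 to 0.15, Dnmt1 from -0.22 to 0.18, E2f1 from -0.37 to 0.14 and Myc from -0.27 to 0.17, and the cause was not tested. For G2 and mitosis, called at 6 genes as reported, the count was 12 with DESeq2, 18 with no filter and 2 with only the groups compared, and for G1/S control it was 3 with only the groups compared. Of all genes, 3.37% were called with only the groups compared, beside 8.3% with DESeq2 and 5.21% with no filter.

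Replicate numbers recur in each group, but no label ties the mice of a number together, and deviations of same-numbered libraries correlated between -0.15 and 0.115, so the numbers were not taken as pairs. With the number as a replicate block, 3 of the 38 genes were called at 18 h (Rfc5, Rrm1 and Rrm2). These were 7.89%, against 4.13% of all genes. None was called at 72 h, and 1 was called between the times (2.63%, against 7.24% of all genes). In the same fit Pola1 at 18 h was 0.0074, and 10 genes of G2 and mitosis were called at 18 h. Depth limits the lowest genes most: Fen1 and the GINS subunits had at most 199 normalised counts in any library.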

Other observations

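Of the 44 replication genes outside the 38, the lowest adjusted p at 18 h belonged to Cdc7 and Asf1b, which are given here although neither was called and both were chosen after their values were seen. Cdc7, a kinase that triggers the loaded helicase, had 134, 211 and 119 normalised counts in controls, 394, 337 and 204 in 18h-αGal and 228, 309 and 209 in 72h-αGal. Its log2 fold change at 18 h was 1.02 ± 0.30 (edgeR, adjusted p = 0.0615), and the groups overlapped through 18h-αGal replicate 3. Asf1b, a histone chaperone of S phase, had 252, 248 and 124 in controls, 424, 421 and 337 in 18h-αGal and 244, 213 and 338 in 72h-αGal. Its 18h-αGal libraries were above all controls, with 0.91 ± 0.28 (adjusted p = 0.0696). DESeq2 called both genes, with adjusted p of 0.0291 for Cdc7 and 0.0346 for Asf1b.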
